A study of Mus musculus with 32 samples.

Results

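The interferon-gamma-inducible GTPases described here were 10 mouse genes chosen by name, the guanylate-binding proteins Gbp2, Gbp3, Gbp6, Gbp7 and Gbp9 and the immunity-related GTPases Igtp, Irgm1, Irgm2, Iigp1 and Tgtp2. All 10 were found among 45706 gene identifiers, and all 10 passed the filter on low counts that left 15186 genes for testing. RNA was measured in wild-type donor haematopoietic stem and progenitor cells, which carried both CD45 alleles on a C57BL/6J background and were sorted from marrow for Kit and Sca1 without lineage antigens. The 4 groups of 4 libraries were experienced mice given lipopolysaccharide (LPS), experienced mice given phosphate-buffered saline (PBS), naive mice given LPS and naive mice given PBS. Each experienced mouse was an irradiated CD45.2 recipient of 800000 wild-type marrow cells and 200000 partner cells homozygous for the human MLL-AF9 fusion gene and for the doxycycline-responsive activator rtTA. The partner cells of naive mice were homozygous for rtTA but had no MLL-AF9. All groups were given doxycycline for 5 weeks, starting 6 to 8 weeks after the transplant, and were then kept 4 weeks without it. Marrow was taken 24 h after the injection. The sorted cells themselves carried no MLL-AF9, and the labels give no age. The sample titles number the 4 libraries of each group as biological replicates, but the labels do not say whether each was a separate mouse. The p-values therefore describe the spread among these libraries, which may be partly technical.

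Interferon gamma binds a receptor made of Ifngr1 and Ifngr2, and its signal reaches gamma-activated sites (GAS) in promoters. Type I interferons act mainly on interferon-stimulated response elements (ISRE), which are bound by a complex that holds Irf9. The GTPases induced in this way are known in mouse cells for coating the vacuoles of intracellular pathogens and for breaking those vacuoles open. In mouse marrow, Irgm1 is also known to be needed for normal haematopoietic stem cell function. LPS, a component of the bacterial outer membrane, is sensed by Toll-like receptor 4 and induces interferons.

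Promoter sequences are shown because most of the 10 genes varied together between libraries and both kinds of element can be read from the bases. RefSeq promoter windows (GRCm38.p6, 250 bases before to 50 after the annotated start) were found for 7 of the 10 genes, 8 windows in all, since Gbp3 had 2. They were searched for the ISRE core GAAANNGAAA on both strands (TTTCNNTTTC on the other) and for the GAS letters TTCNNNGAA, which read the same on both strands. The stretch around each match follows, 5′ to 3′ on the gene's own strand, with matches in capitals.
Gbp7 (chr3:142530218-142530304, plus strand): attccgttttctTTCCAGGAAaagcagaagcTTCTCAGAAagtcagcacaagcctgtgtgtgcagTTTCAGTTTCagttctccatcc
Gbp3 (chr3:142559987-142560026, plus strand): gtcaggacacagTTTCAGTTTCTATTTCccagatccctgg
Gbp2 (chr3:142620592-142620625, plus strand): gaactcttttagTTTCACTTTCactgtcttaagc
Irgm1 (chr11:48871423-48871462, minus strand): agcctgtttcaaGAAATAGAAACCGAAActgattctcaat
Tgtp2 (chr11:49064261-49064305, minus strand): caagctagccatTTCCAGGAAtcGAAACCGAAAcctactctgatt
Igtp (chr11:58199499-58199543, plus strand): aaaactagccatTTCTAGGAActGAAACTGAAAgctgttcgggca
Irgm2 (chr11:58214890-58214934, plus strand): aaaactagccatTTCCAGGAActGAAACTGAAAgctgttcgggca

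Of the 8 windows, 7 held an ISRE core, against 3.44% of 32851 RefSeq promoters, and 4 held a GAS match, against 8.3%. Each of the 7 genes had a window with an ISRE core, and the second Gbp3 window held neither motif. In Gbp3 and Irgm1, 2 ISRE cores overlapped each other in the capitals. In Tgtp2, Igtp and Irgm2 the GAS lay 2 bases before the ISRE core, a spacing found in 5 of the 32851 promoters (0.0152%) and picked out after the sequences had been seen. The other 2 promoters with it were those of Tgtp1 and Gm12185, which belong to the same GTPase family. The Igtp and Irgm2 stretches differed at 1 of 45 bases. The matches lay within the last 106 bases before the start, and they are letters in a window, with no binding measured here. For 4 of the 8 windows, the first 30 bases after the start were found in a GENCODE transcript of the gene. For Gbp7, Tgtp2, Irgm2 and the second Gbp3 window they were not.

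**Figure D1:**
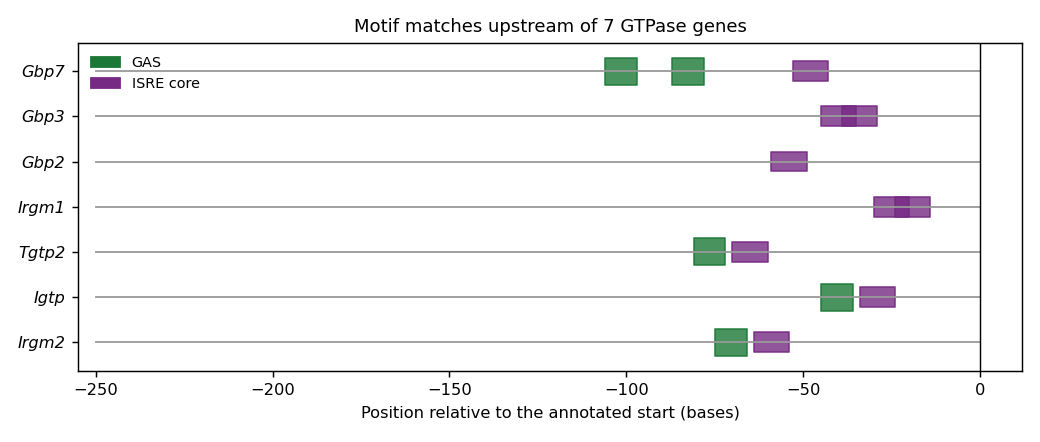
Positions of motif matches in the 7 RefSeq promoter windows that held any, in bases relative to the annotated start (0), with 1 line per gene and boxes for GAS (green) and ISRE core (purple). Every line has an ISRE core within 70 bases of the start, and Tgtp2, Igtp and Irgm2 have a GAS box just before it.

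Levels between genes were compared in TPM, transcript levels scaled for gene length and library size. The highest mean level in each of the 4 groups was that of Tgtp2, an effector GTPase that is known to load onto parasite vacuoles. Its TPM averaged 140 ± 23.4 in experienced LPS, 78.7 ± 38.7 in experienced PBS, 168 ± 61.4 in naive LPS and 83.4 ± 2.47 in naive PBS (SD, n = 4 each). Irgm1 came next in every group, with means of 62.2 ± 6.25, 52.6 ± 3.91, 85.8 ± 29.4 and 44.9 ± 7.45 TPM in the same order. The ranges of Tgtp2 and Irgm1 did not overlap in experienced LPS and naive PBS, and they overlapped in experienced PBS and naive LPS. Gbp7, Igtp, Gbp3, Gbp2, Iigp1 and Irgm2 followed, from 42.7 ± 17.1 TPM for Igtp in naive LPS to 7.87 ± 3.53 TPM for Iigp1 in experienced PBS, and most neighbours in that stretch overlapped. Gbp6, at 2.46 ± 0.991 TPM in experienced LPS and 4.24 ± 1.45 TPM in naive LPS, and Gbp9, at 0.59 ± 0.612 and 1.0 ± 0.442 TPM in those groups, stood at the bottom. Tgtp2's TPM also rests on the gene length that RSEM estimated in each table, which ran from 1323 to 2658 bases for this gene (a ratio of 2.01) and from 3243 to 3354 bases for Irgm2.

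Between groups, CPM (counts scaled to library size) were used. Together the 10 genes held 614, 669, 554 and 856 CPM in experienced LPS libraries 1 to 4, against 445, 540, 368 and 446 CPM in experienced PBS libraries. They held 1160, 646, 882 and 818 CPM in naive LPS libraries, against 418, 400, 406 and 598 CPM in naive PBS libraries. Every LPS library was above every PBS library of the same mice in this CPM sum, which was not tested. In TPM the sums overlapped in experienced mice, at 297 to 375 TPM after LPS and 180 to 311 TPM after PBS. They were apart in naive mice, at 273 to 606 TPM after LPS and 226 to 252 TPM after PBS. In sorted bulk RNA, fewer cells of a type and less RNA per cell cannot be told apart.

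**Figure D2:**
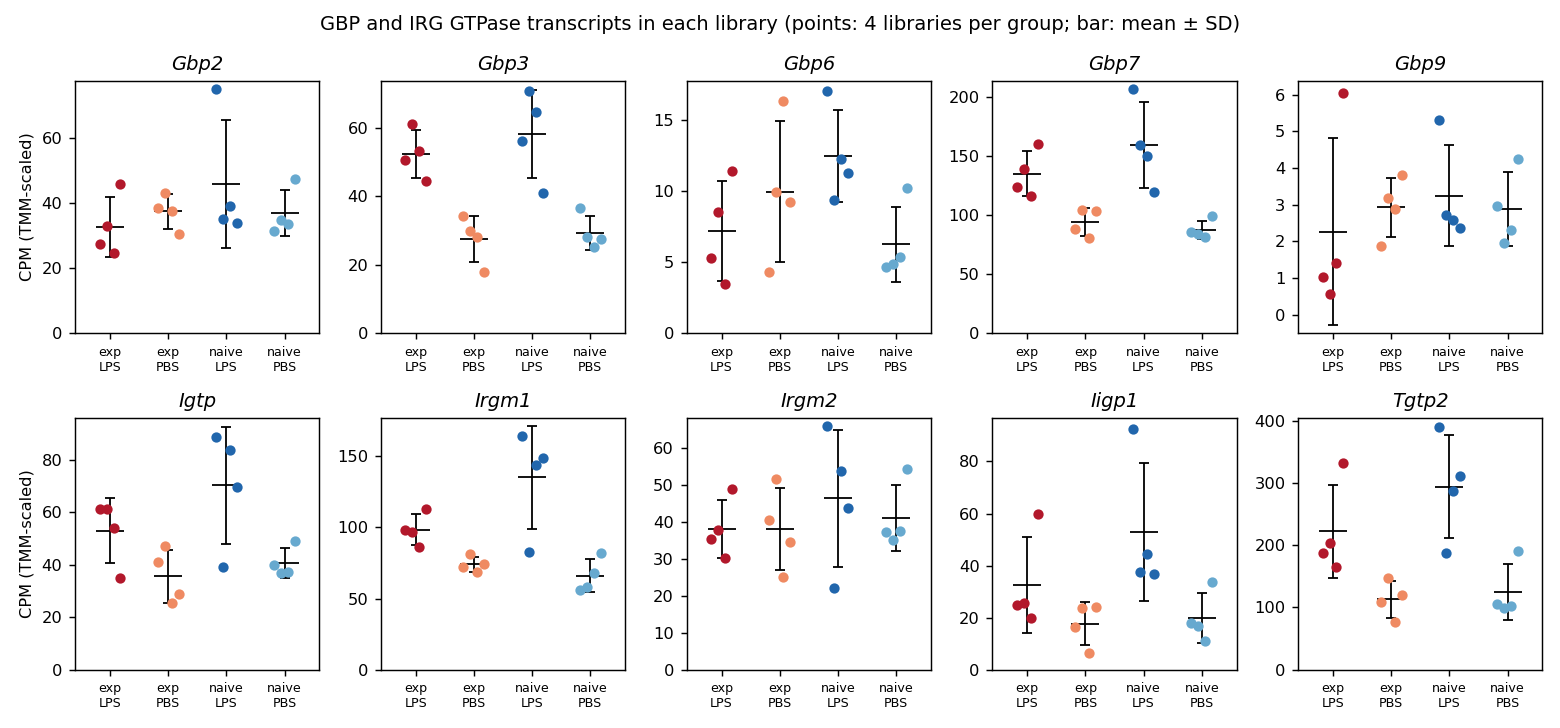
CPM (TMM-scaled) of the 10 GTPases in each library, 1 panel per gene with its own linear axis; points are the 4 libraries of a group in replicate order, and the black bar is the mean ± SD. Gbp3, Gbp7 and Irgm1 have every LPS library above every PBS library in both kinds of mice. The LPS and PBS groups of Gbp2, Gbp6, Gbp9, Igtp and Irgm2 overlap in both kinds of mice.

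After LPS in experienced mice, 3 of the 10 GTPases rose, Gbp3, Gbp7 and Tgtp2, and 0 fell. Of all 15186 genes, 4.52% were called higher and 8.26% lower in this comparison. The median log2 change of the 10 was 0.46, against −0.02 over all genes tested. Calls were made by the quasi-likelihood test of edgeR at an adjusted p of 0.05, with the Benjamini-Hochberg method over all genes tested. In 4 of the 10 genes, Gbp3, Gbp7, Irgm1 and Tgtp2, every experienced LPS library lay above every experienced PBS library, which 6.43% of all genes did. Without experienced LPS 4 and experienced PBS 4, the 2 libraries with the highest mitochondrial share, 1 was called higher (Gbp3) and 1 lower (Gbp9). That fit called 1559 of 15484 tested genes higher and 1801 lower, against 686 and 1254 of 15186 with all libraries. By limma on log2(TPM + 1), 0 of the 10 were called; that scale moved the median of all genes to −0.13 and gave 15.7% of all calls as higher, against 35.4% by edgeR.

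In naive mice, LPS raised 6 of the 10 GTPases, Gbp3, Gbp7, Igtp, Irgm1, Iigp1 and Tgtp2, and 0 fell. Of all genes, 9.81% were called higher and 11.9% lower in naive mice. The median log2 change of the 10 was 0.92, against 0.02 over all genes. All 10 log2 changes were above 0, from 0.18 for Irgm2 to 1.42 for Iigp1, but Irgm2's turned to −0.03 on the log2(TPM + 1) scale. In 4 of the 10 genes, Gbp3, Gbp7, Irgm1 and Iigp1, every naive LPS library lay above every naive PBS library, as did 12.5% of all genes. By limma on log2(TPM + 1), 2 were called (Gbp7 and Irgm1), and higher genes made up 19.9% of all calls, against 45.2% by edgeR and 35.0% by edgeR with upper-quartile scaling. The 3 genes called in experienced mice were among the 6 called in naive mice, and the numbers called are no test of a difference between the mice, which the interaction below gives.

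Gbp3, a guanylate-binding protein, had 50.5, 61.1, 53.3 and 44.4 CPM in experienced LPS libraries 1 to 4, against 34.1, 29.8, 28.2 and 17.9 CPM in experienced PBS libraries. It had 56.1, 70.7, 64.7 and 40.9 CPM in naive LPS libraries, against 36.5, 28.2, 25.2 and 27.4 CPM in naive PBS libraries. The groups did not overlap in either kind of mice, and the fourth LPS library was the lowest in both. Gbp3 rose by a log2 change of 0.93 (SE 0.20, adjusted p = 0.00694, edgeR) in experienced and 0.98 (SE 0.20, adjusted p = 0.00299, edgeR) in naive mice. Both calls held without any 1 library.

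Gbp7, known in mouse macrophages for helping to assemble the phagocyte oxidase on vacuoles, had 124, 139, 116 and 160 CPM in experienced LPS libraries, against 88.3, 104, 80.5 and 103 CPM in experienced PBS libraries. In naive LPS libraries it had 207, 159, 150 and 119 CPM, against 85.8, 83.8, 81.7 and 98.8 CPM in naive PBS libraries. The groups were apart in both kinds of mice, by a narrower margin in experienced mice. Its log2 change was 0.86 (SE 0.16, adjusted p = 0.00158, edgeR) in naive mice and held without any 1 library. In experienced mice it was 0.52 (SE 0.16, adjusted p = 0.0425, edgeR), and that call was lost without experienced LPS 1, 2 or 4, experienced PBS 1, 2 or 3, or naive PBS 2 or 3, with log2 changes of 0.45 to 0.57 and adjusted p = 0.0567 to 0.116 by edgeR.

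Gbp2, known for damaging vacuole and bacterial membranes, was not called. It had 27.5, 33.0, 24.7 and 45.8 CPM in experienced LPS libraries, against 38.6, 43.3, 37.5 and 30.4 CPM in experienced PBS libraries. It had 75.1, 35.1, 39.3 and 33.9 CPM in naive LPS libraries, against 31.6, 35.0, 33.7 and 47.6 CPM in naive PBS libraries. The groups overlapped in both kinds of mice, and the highest value was naive LPS 1, with a log2 change of 0.31 in naive mice (95% interval −0.21 to 0.84) and −0.20 in experienced mice (−0.73 to 0.32). Gbp6 and Gbp9, from the GBP cluster on chromosome 5, were low and scattered. Gbp6 had 5.28, 8.57, 3.45 and 11.4 CPM in experienced LPS libraries, against 4.30, 9.97, 16.4 and 9.25 CPM in experienced PBS libraries. It had 17.1, 9.42, 12.3 and 11.3 CPM in naive LPS libraries, against 4.63, 4.86, 5.34 and 10.2 CPM in naive PBS libraries. Gbp6 was above its other naive PBS values in naive PBS 4, and without that library its log2 change in naive mice passed the test (1.36, edgeR adjusted p = 0.0456), against 1.01 with it (SE 0.41, edgeR adjusted p = 0.0861).
Gbp9 had 1.02, 0.565, 1.41 and 6.05 CPM in experienced LPS libraries, against 1.88, 3.17, 2.87 and 3.81 CPM in experienced PBS libraries. The fourth experienced LPS library stood above all the others, and without it Gbp9 was called lower after LPS (log2 change −1.47, edgeR adjusted p = 0.0237), against −0.43 (SE 0.56, edgeR adjusted p = 0.671) with it. In naive mice Gbp9 ranged from 2.37 to 5.30 CPM after LPS and from 1.96 to 4.25 CPM after PBS, with a log2 change of 0.19 (95% interval −0.96 to 1.34). Gbp9 overlaps Gbp8 and Gbp4 on the same strand, so reads of one could have been given to another.

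Among the immunity-related GTPases, Irgm1, Irgm2 and Igtp are regulators that sit on the cell's own membranes and hold the effectors Iigp1 and Tgtp2 inactive there. Irgm1 had 97.8, 97.0, 86.1 and 113 CPM in experienced LPS libraries, against 71.9, 81.1, 68.8 and 74.3 CPM in experienced PBS libraries. It had 164, 82.4, 144 and 149 CPM in naive LPS libraries, against 56.1, 58.2, 68.0 and 81.9 CPM in naive PBS libraries. The groups were apart in both kinds of mice, although naive LPS 2 was only just above the highest naive PBS library. Irgm1 rose in naive mice (log2 change 1.03, SE 0.18, edgeR adjusted p = 0.00109), with or without any 1 library. In experienced mice its log2 change was 0.41 (SE 0.18) and did not pass (edgeR adjusted p = 0.149), except without naive LPS 2 (0.44, adjusted p = 0.0324).

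Igtp had 61.4, 61.4, 54.2 and 35.1 CPM in experienced LPS libraries, against 41.2, 47.0, 25.6 and 28.9 CPM in experienced PBS libraries. It had 88.8, 39.0, 83.7 and 69.7 CPM in naive LPS libraries, against 39.9, 36.8, 37.4 and 48.9 CPM in naive PBS libraries. The groups overlapped in both kinds of mice, through experienced LPS 4 and naive LPS 2. Igtp was called in naive mice (log2 change 0.79, SE 0.25, edgeR adjusted p = 0.0325), a call lost without naive LPS 1 or 3 or naive PBS 1, 2 or 3 (0.66 to 0.79, adjusted p = 0.0714 to 0.0961). In experienced mice it was not called (0.57, SE 0.25, edgeR adjusted p = 0.144) unless experienced LPS 4 was left out (0.75, adjusted p = 0.0425).

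Irgm2 had 35.5, 37.8, 30.3 and 48.8 CPM in experienced LPS libraries, against 40.4, 51.7, 25.1 and 34.6 CPM in experienced PBS libraries. It had 66.0, 22.2, 53.7 and 43.8 CPM in naive LPS libraries, against 37.4, 35.2, 37.5 and 54.3 CPM in naive PBS libraries. The groups overlapped fully, and naive LPS held both the highest and the lowest of the 16 values. The 95% interval of its log2 change was −0.59 to 0.58 in experienced mice and −0.40 to 0.77 in naive mice. Igtp and Irgm2 overlap on the same strand of chromosome 11, so reads of one could have been given to the other.

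Iigp1, the best studied vacuole-disrupting effector in mouse cells, had 24.8, 25.6, 19.9 and 59.8 CPM in experienced LPS libraries, against 16.5, 23.6, 6.47 and 24.1 CPM in experienced PBS libraries. It had 92.5, 37.7, 44.5 and 36.9 CPM in naive LPS libraries, against 17.9, 16.8, 10.9 and 33.7 CPM in naive PBS libraries. The naive groups were apart and the experienced groups overlapped, and experienced LPS 4 and naive LPS 1 stood far above the rest of their groups. Iigp1 had the largest log2 change of the 10 in naive mice, 1.42 (SE 0.45, edgeR adjusted p = 0.0329). That call was lost without naive LPS 1 (1.0, adjusted p = 0.127) or naive PBS 1, 2 or 3 (1.22 to 1.38, adjusted p = 0.0783 to 0.0941). In experienced mice its log2 change was 0.87 (SE 0.45, edgeR adjusted p = 0.219).

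Tgtp2 had 187, 204, 165 and 332 CPM in experienced LPS libraries, against 108, 147, 76.3 and 120 CPM in experienced PBS libraries. It had 389, 188, 287 and 311 CPM in naive LPS libraries, against 105, 98.7, 103 and 191 CPM in naive PBS libraries. The experienced groups were apart, and in naive mice naive PBS 4 reached just above naive LPS 2. Tgtp2 rose in naive mice (log2 change 1.24, SE 0.28, edgeR adjusted p = 0.00569), a call that held without any 1 library. In experienced mice it was called at 0.98 (SE 0.28, edgeR adjusted p = 0.0297), and the call was lost without experienced LPS 2 or 4 or experienced PBS 1 or 3 (0.74 to 1.01, adjusted p = 0.0535 to 0.0823).
Of the 31-base words in Tgtp2's transcripts, 93.3% are shared with its neighbour Tgtp1, so counts of the pair are uncertain. Tgtp1 had 59.3, 67.8, 48.9 and 81.9 CPM in experienced LPS libraries, against 61.3, 79.9, 40 and 57.8 CPM in experienced PBS libraries, and these overlapped. Summed, the pair held 286 ± 88.0 CPM in experienced LPS and 172 ± 45.1 CPM in experienced PBS, and 394 ± 117 CPM in naive LPS and 185 ± 65.5 CPM in naive PBS (SD, n = 4 each). With Tgtp1 added to Tgtp2, an alternative chosen after seeing the data, the log2 change was 0.73 in experienced mice (edgeR adjusted p = 0.0944), so that call was lost, and 1.09 in naive mice (edgeR adjusted p = 0.0119).

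**Figure D3:**
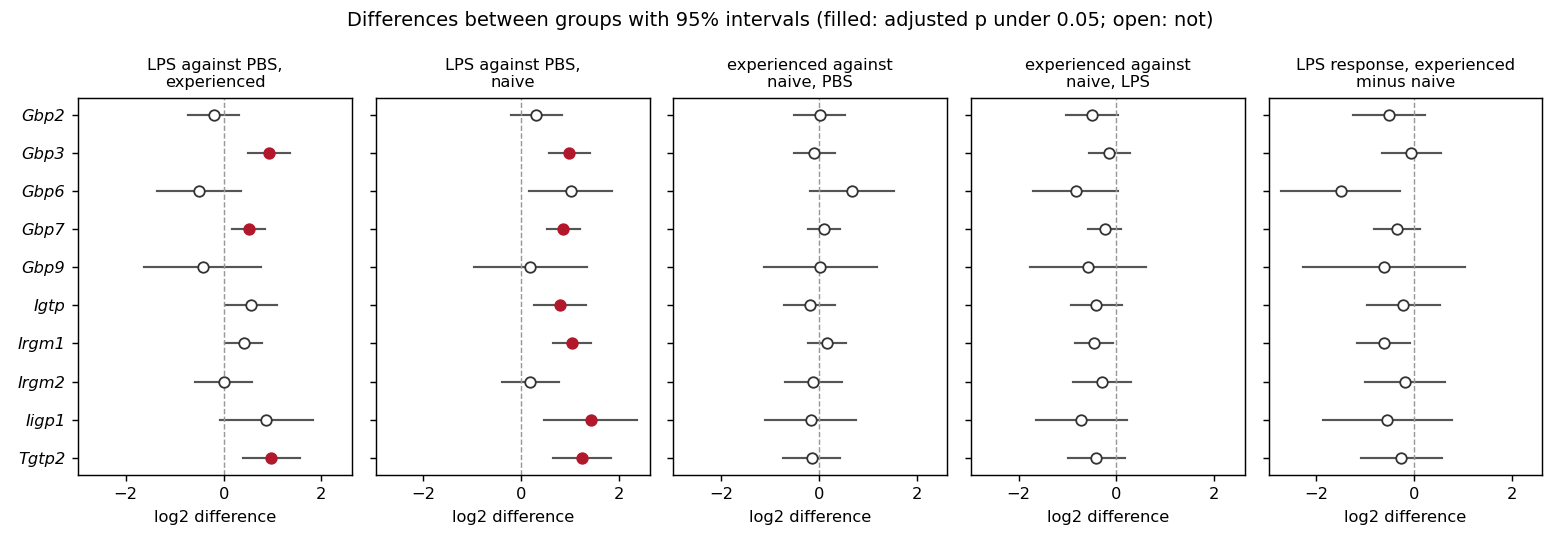
Log2 differences of the 10 GTPases in 5 contrasts, with 95% intervals as lines; filled points passed an edgeR adjusted p of 0.05 and open points did not. The LPS contrasts hold 3 (experienced mice) and 6 (naive mice) filled points, and the contrasts between experienced and naive mice hold 0.

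Between experienced and naive mice, no difference was called for any of the 10 GTPases. After PBS, 0 of 10 were called, as were 0 of 15186 genes (0.0%). At an unadjusted p under 0.05, 0 of the 10 and 2.97% of all genes passed by edgeR, and DESeq2 also called 0 of the 10. The log2 differences, experienced minus naive, ran from −0.19 for Igtp to 0.67 for Gbp6, with 5 above and 5 below 0. Intervals were narrowest for Gbp7 (−0.23 to 0.44) and widest for Gbp9 (−1.12 to 1.18). The groups overlapped for all 10, while 4.06% of all genes had groups that did not.

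After LPS, the 10 differences between experienced and naive mice were all below 0, from −0.15 for Gbp3 to −0.83 for Gbp6, under every scaling tried, and 0 were called by edgeR (0.0% of all genes) or by DESeq2. The median was −0.43, against −0.02 over all genes, of which 53.8% were below 0. Without naive LPS 1 the median of the 10 was −0.24. Irgm1 was the 1 member at an unadjusted p under 0.05 by edgeR (−0.46, SE 0.18, edgeR adjusted p = 1.0), a share of 10.0% of the 10 against 3.23% of all genes. All 10 genes overlapped between the groups, against 1.63% of genes that did not overlap. The 10 genes move together between libraries, so 10 differences of 1 sign are not 10 separate observations. These differences use the same LPS libraries as the LPS responses above.

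The interaction, which subtracts the LPS response in naive mice from the response in experienced mice, was below 0 for all 10, with 53.2% of all genes below 0, but Gbp3 and Tgtp2 turned to 0.05 and 0.04 on the log2(TPM + 1) scale. The median of the 10 was −0.43, against −0.03 over all genes, and −0.15 without naive LPS 1. By edgeR 0 of the 10 and 0 of all genes (0.0%) were called, and DESeq2 called 0 of the 10. At an unadjusted p under 0.05, 2 members passed by edgeR, as did 4.58% of all genes. They were Gbp6 (−1.50, SE 0.58, edgeR adjusted p = 0.884) and Irgm1 (−0.62, SE 0.26, edgeR adjusted p = 0.884). For Irgm1 the 2 responses behind it were 0.41 in experienced and 1.03 in naive mice, and for Gbp3 they were 0.93 and 0.98 (interaction −0.06, 95% interval −0.65 to 0.54).

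Within groups, the libraries varied together in most of the 10. Over the 16 libraries, each as its log2 deviation from its group's mean, the 45 pairs had a median Pearson r of 0.5, from −0.44 for Gbp3 with Irgm1 to 0.9 for Irgm1 with Irgm2. Irgm2 with Tgtp2 (0.89) and Iigp1 with Tgtp2 (0.87) were close behind. Gbp3 was the main exception, with a median r of −0.2 with the other 9. Igtp had the next lowest median r, 0.25, from −0.29 with Gbp9 to 0.7 with Irgm2. The high libraries were naive LPS 1, in which 9 of the 10 were above their group's mean and the mean deviation was 0.52, experienced LPS 4 (8 of 10, 0.50), naive PBS 4 (9 of 10, 0.45) and experienced PBS 2 (10 of 10, 0.29). The lowest was naive LPS 2 (2 of 10, −0.39).

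Of 10971 genes whose log2 CPM averaged 2 or more, those with a pattern most like the mean of the 10 included Oas3, Rtp4, Ube2l6, Ifit1, Rsad2, Parp12 and Oasl2, all known as interferon-induced genes. Their Pearson r with that mean over the 16 libraries was 0.935 to 0.909, and within groups it was 0.804 for Oasl2, 0.852 for Oas3 and 0.911 for Rsad2. The libraries share depth and scaling across genes, and these are descriptions with no test. Rsad2, an antiviral enzyme, had 17.1, 19.9, 13.5 and 32.2 CPM in experienced LPS libraries, against 13.9, 12.6, 9.8 and 11.3 CPM in experienced PBS libraries. It had 37.1, 19.8, 24.9 and 22.5 CPM in naive LPS libraries, against 15.3, 14.4, 11.6 and 22 CPM in naive PBS libraries. Experienced LPS 4, naive LPS 1 and naive PBS 4 were the highest of their groups for Rsad2, and its LPS and PBS groups overlapped in both kinds of mice.

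After LPS, 4.52% of all genes were called higher and 8.26% lower in experienced mice, and 9.81% and 11.9% in naive mice. Of 19 tested genes of interferon-gamma signalling, upstream of the GTPases, 1 rose and 1 fell in experienced mice. In naive mice 5 rose (among them Ifngr1, Irf9, Cxcl9 and Cxcl10) and 2 fell (Irf8 and Ciita). The genes called in experienced mice were Cxcl10 and Irf8. There, 2 were higher without experienced LPS 4 or experienced PBS 1, and 2 were lower without experienced LPS 4. In naive mice the count of 5 was 3 without naive PBS 1, 3 or 4, the count of 2 lower was 1 without naive PBS 1 or 2, and Irf9 lost its call in 8 of 16 leave-one-outs. The cytokine gene Ifng itself was at 0 in 13 of 16 libraries and at most 0.21 CPM in the other 3, so it was not tested. Ifngr1, the ligand-binding receptor chain, had 132, 114, 140 and 132 CPM in experienced LPS libraries, against 77.8, 72.7, 115 and 121 CPM in experienced PBS libraries, and was not called there. In naive LPS libraries it had 207, 95, 171 and 142 CPM, against 89.3, 88.0, 78.3 and 83.6 CPM in naive PBS libraries, and it rose (log2 change 0.86, SE 0.21, edgeR adjusted p = 0.00788). Every naive LPS library was above every naive PBS library for Ifngr1, as in 12.5% of all genes.
Irf1, a transcription factor that interferon gamma induces and that acts on GBP promoters, did not rise with them. It averaged 63.9 ± 18 CPM in experienced LPS and 89.4 ± 30.9 CPM in experienced PBS, and 71.5 ± 8.27 CPM in naive LPS and 100 ± 1.94 CPM in naive PBS (SD, n = 4 each). Every naive LPS library was below every naive PBS library, as in 16.8% of all genes, without passing the test (−0.49, SE 0.23, edgeR adjusted p = 0.141). Irf8, a myeloid regulator that also binds such elements, fell by 2.77 on the log2 scale in naive mice (SE 0.37, edgeR adjusted p = 0.000113) and by 1.65 in experienced mice (SE 0.35, edgeR adjusted p = 0.00597). Cxcl10, a chemokine induced by interferons, rose by 3.29 (SE 0.40, edgeR adjusted p = 9.16e-05) in experienced and 3.39 (SE 0.39, edgeR adjusted p = 3.48e-05) in naive mice.

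Other GBP and IRG genes did not all follow the 10. Of 14 tested, 0 rose and 6 fell in experienced mice (4.52% and 8.26% of all genes), with a median log2 change of −0.28. In naive mice 2 rose (Gm12250 and Gm12185) and 2 fell (Gbp8 and 9930111J21Rik1), with a median of 0.12. There, 9.81% of all genes rose and 11.9% fell. Those that fell in experienced mice were Gbp8, Gbp10, Gm5431, Irgq, 9930111J21Rik1 and 9930111J21Rik2. Gbp10 and Gm5431 were low, each averaging 1.07 CPM in experienced PBS. Gm5431 and Irgq only just passed (edgeR adjusted p = 0.0452 and 0.0453). Leaving out 1 library gave 2 to 6 lower in experienced mice, with 2 without experienced LPS 1 or experienced PBS 2 and 3 without experienced LPS 2 or 3. In naive mice it gave 1 to 4 higher and 1 to 3 lower. Gm12185 lost its call in naive mice in 6 of 16 leave-one-outs, and Gbp10 lost its call in experienced mice in 4. Gbp8 had 0.546, 0.791, 0.286 and 0.550 CPM in experienced LPS libraries, against 1.12, 2.61, 2.07 and 1.80 CPM in experienced PBS libraries, a log2 change of −1.82 (SE 0.47, edgeR adjusted p = 0.0178). This call was lost without experienced LPS 1, experienced LPS 3 or experienced PBS 2. In naive mice the change was −1.29 (SE 0.44, edgeR adjusted p = 0.0451), and that call was lost in 11 of 16 leave-one-outs, with log2 changes of −1.47 to −0.87 and edgeR adjusted p up to 0.192 over the 16. 9930111J21Rik1, an IRG-like gene, had 6.38, 5.46, 6.87 and 5.50 CPM in experienced LPS libraries, against 28.4, 21.2, 16.3 and 8.87 CPM in experienced PBS libraries. Its log2 change was −1.62 (SE 0.30, edgeR adjusted p = 0.00255) there and −2.12 (SE 0.31, edgeR adjusted p = 0.00023) in naive mice, and the groups were apart in both. Of all genes, 10.9% had every LPS library below every PBS library in experienced mice, and 16.8% did in naive mice.
Gm12250, an IRG gene, had 22.5, 25.4, 20.6 and 26.8 CPM in experienced LPS libraries, against 16.3, 22, 9.14 and 12.1 CPM in experienced PBS libraries, which overlapped. In naive LPS libraries it had 40.9, 30.1, 36.5 and 34.4 CPM, against 14.1, 12.6, 13.2 and 21.4 CPM in naive PBS libraries, and it rose there (1.21, SE 0.24, edgeR adjusted p = 0.00225). Ifi47, another IRG gene, averaged 123 ± 38.5 CPM in experienced LPS and 75.7 ± 15.7 CPM in experienced PBS, and 116 ± 44.5 CPM in naive LPS and 110 ± 20.9 CPM in naive PBS (SD, n = 4 each). It passed in neither kind of mice (edgeR adjusted p = 0.116 and 0.862). Gbp5, which promotes inflammasome assembly in mouse macrophages, was not called, with 95% intervals of its log2 change of −0.44 to 0.45 in experienced and −0.23 to 0.65 in naive mice.

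Of 6 tested GTPases of the Mx and GVIN families, 1 rose in experienced mice (Gm4070, log2 change 1.09, SE 0.30, edgeR adjusted p = 0.0242, not called without experienced PBS 1 or 3) and 3 rose in naive mice (Gm4070, Gvin1 and Gm8995, 1.41, 1.40 and 0.78), with 0 lower. Of 26 genes that target GTPases to vacuoles or act beside them, such as the Atg8 conjugation machinery and the caspases, 0 were called in experienced mice by edgeR, with 7 at an unadjusted p under 0.05. In naive mice 2 rose (Atg3 and Atg16l1) and 2 fell (Atg7 and Map1lc3b). Leaving out 1 library gave 0 to 3 higher, with 0 without naive PBS 2 or 4 and 1 without naive PBS 1, and 1 to 4 lower, with 1 without naive PBS 4 and 4 without experienced LPS 4, and Atg7 was the 1 gene of the 4 called in every leave-one-out. For the lists in this paragraph, the shares of all genes called were 4.52% higher and 8.26% lower in experienced mice. In naive mice those shares were 9.81% and 11.9%. Of 24 genes induced by type I interferon, 6 rose in experienced and 18 in naive mice, and 0 fell. Median log2 changes of the 24 were 0.61 and 1.08, against −0.02 and 0.02 over all genes. Leaving out 1 library gave 6 to 7 higher in experienced and 13 to 20 in naive mice. Irf7 rose from this list in both, by 1.69 (SE 0.30, edgeR adjusted p = 0.00184) in experienced and 2.33 (SE 0.31, edgeR adjusted p = 0.000113) in naive mice.

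Libraries held 7718857 to 22264672 counts. Mitochondrial genes took 1.91 to 4.26% of counts, except for 7.30% in experienced LPS 4, which also had the fewest detected genes (14859), and 5.94% in experienced PBS 4. For the marker counts that follow, 4.52% of all genes were called higher and 8.26% lower after LPS in experienced mice. In naive mice the shares were 9.81% and 11.9%. All 15 haematopoietic stem and progenitor markers were detected in every group, and 2 rose and 7 fell after LPS in experienced mice and 2 rose and 8 fell in naive mice. Their summed level was 1020 to 1160 TPM in experienced LPS and 1270 to 1710 TPM in experienced PBS, and 944 to 1410 TPM in naive LPS and 1370 to 1730 TPM in naive PBS. Ly6a encodes Sca1, the antigen used in the sort, and is itself known to be induced by interferon. It ranged from 130 to 201 TPM in experienced LPS and from 26.3 to 78.1 TPM in experienced PBS, and from 90.7 to 231 TPM in naive LPS and from 48.9 to 70.9 TPM in naive PBS, with log2 changes of 1.87 (edgeR adjusted p = 0.00207) and 1.72 (edgeR adjusted p = 0.00237). Of 9 basophil and mast cell markers, 6 rose in experienced and 9 in naive mice, and their summed level was 213 to 378 TPM in experienced LPS, 40.5 to 155 TPM in experienced PBS, 275 to 632 TPM in naive LPS and 35.1 to 74.6 TPM in naive PBS. Of 10 tested erythroid markers, 0 were called in experienced and 5 rose in naive mice, with sums of 405 to 1540, 258 to 2270, 587 to 1580 and 270 to 438 TPM in the same order of groups, and Hba-a1 at 0 in naive PBS. Of 12 tested monocyte, macrophage and dendritic cell markers, whose cells are known for high GTPase levels, 1 rose (Cd14) and 0 fell in experienced and 0 rose and 2 fell (Ly86 and Itgax) in naive mice. Their sums were 15.7 to 34.7 TPM in experienced LPS, 18.6 to 44.7 TPM in experienced PBS, 15.0 to 25.2 TPM in naive LPS and 24.8 to 40.1 TPM in naive PBS, with Cd209a at 0 in both LPS groups and Ms4a7 at 0 in experienced LPS. Sums of B and plasma cell markers were 16.8 to 23.3 and 28.9 to 93.2 TPM in experienced LPS and PBS, and 15.8 to 18.7 and 38.7 to 53.7 TPM in naive LPS and PBS. The part of these markers and of Ly6a in the GTPase results was not tested.

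The genes lie in clusters, given here in GENCODE coordinates of GRCm38. Gbp7 (142530342 to 142550149), Gbp3 (142560026 to 142573209) and Gbp2 (142620602 to 142638008) follow each other on chromosome 3. Gbp9 (105077630 to 105139539) and Gbp6 (105270702 to 105293698) are on chromosome 5. Irgm1 (48861968 to 48871683), Tgtp2 (49057194 to 49064206), Igtp (58199556 to 58207591) and Irgm2 (58199618 to 58222782) are on chromosome 11, and Iigp1 (60376027 to 60392634) is on chromosome 18. Their identifiers in the tables are ENSMUSG00000040253 (Gbp7), ENSMUSG00000028268 (Gbp3), ENSMUSG00000028270 (Gbp2), ENSMUSG00000029298 (Gbp9), ENSMUSG00000104713 (Gbp6), ENSMUSG00000046879 (Irgm1), ENSMUSG00000078921 (Tgtp2), ENSMUSG00000078853 (Igtp), ENSMUSG00000069874 (Irgm2) and ENSMUSG00000054072 (Iigp1). Neighbours share sequence, and the share of 31-base words found in another gene was 94.7% for Tgtp2, 64.4% for Gbp6 (55.3% with Gm43302), 18.8% for Gbp9, 16.4% for Igtp, 14.8% for Gbp7, 11.7% for Iigp1, 10.2% for Irgm2, 7.05% for Gbp3, 4.91% for Gbp2 and 1.68% for Irgm1. Counts of Gbp2 and Irgm1 were whole numbers in all 16 tables, and those of Gbp7 and Tgtp2 in 0 of 16, within 0.005.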

How the data were processed

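RNA-seq was analysed from 16 tables of sorted mouse progenitors, 4 in each of 4 groups, with groups and replicate numbers taken from the sample titles. The labels list 2 technical replicates for each table, and the sources used here do not say whether their reads were merged. RNA came from a column kit for small samples, per the labels' protocols, which also name a droplet library kit; the tables hold 1 value per gene and were treated as bulk. The submitters' processing notes name Trim Galore 0.6.7, STAR 2.7.10a, RSEM 1.3.1 and the build GRCm38. The sources used here give neither the annotation release nor the strand setting.

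The authors deposited expected counts from RSEM (estimated read numbers, often fractional) and TPM, scaled for length, per the file headers. RSEM divides reads between near-identical genes, so those of GTPase families are uncertain. Symbols and coordinates came from the GENCODE annotation of GRCm38, matched for 45143 of 45706 identifiers, and promoters from RefSeq.

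Expected counts were rounded, filtered by edgeR's expression filter by group (15186 genes, 99.928% of counts), TMM-scaled (trimmed mean of M values) and fitted with edgeR 4.0.16 (R 4.3.3) by quasi-likelihood with 1 mean per group over all 16 libraries (common biological coefficient of variation 0.306, 12 residual degrees of freedom). Adjusted p-values are Benjamini-Hochberg values over all genes tested, with calls at 0.05. Log2 CPM for correlations used a prior count of 1. Alternatives were other scalings, DESeq2 1.42.0, limma 3.58.1 on log2(TPM + 1) and log2(TPM + 0.1), no filter, 2 groups only, a replicate block, leaving out libraries, and adding Tgtp1 to Tgtp2. The edgeR fit was also run on simulated counts, with results not reported here. That simulation used the same dispersion for all genes and no deviating library, so it does not cover the calls that hang on single libraries. Python 3.11.15 made the tables.

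The 10 genes, the 5 pathway lists and the 8 marker lists were chosen with earlier results of these data known. Named genes were the 10, fixed names, up to 4 called genes per list and contrast with the lowest adjusted p, and the 8 genes most like the 10; some of these are not reported here. Gm5431, Irgq, Cxcl9, Ciita, Cd14, Ly86, Itgax, Hba-a1, Cd209a, Ms4a7, Ly6a and Gm43302 were named after their values were seen. The main fit did not pair samples by replicate number.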

Additional observations from a re-analysis of the deposited data

Results flagged for a closer look

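Of 40 sets of 4 libraries (10 genes in 4 groups), 8 had a highest library far from the other 3 by Dixon's test at its 95% critical value for 4 samples. Chance flags about 5% of sets of independent, normally distributed values. Most of the 10 genes varied together between libraries, so the 8 cannot be set against that rate. In naive LPS 1, Gbp2 stood at 75.1 CPM, with the nearest library at 39.3 CPM. Gbp9 in that library stood at 5.3 CPM (nearest 2.71 CPM) and Iigp1 at 92.5 CPM (nearest 44.5 CPM). In experienced LPS 4, Gbp9 stood at 6.05 CPM (nearest 1.41 CPM) and Iigp1 at 59.8 CPM (nearest 25.6 CPM). In naive PBS 4, Gbp6 stood at 10.2 CPM (nearest 5.34 CPM), Irgm2 at 54.3 CPM (nearest 37.5 CPM) and Tgtp2 at 191 CPM (nearest 105 CPM). On the TPM scale Tgtp2 did not stand apart in naive PBS 4 (81.5 TPM, against 81.6 to 86.8 TPM in the other naive PBS libraries), and the gene length in that table was 2307 bases, against 1380 to 1745 bases in the others. All 8 were the highest of their group.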

How the results depend on the processing

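Counts of GTPases called higher were 3 in experienced and 6 in naive mice with TMM and with DESeq2, and 0 and 2 with limma on log2(TPM + 1) or log2(TPM + 0.1). Leaving out 1 library gave 1 to 4 in experienced mice (1 without experienced LPS 2, experienced PBS 1 or experienced PBS 3) and 4 to 7 in naive mice, with 0 to 1 lower in experienced mice. Without replicate 4 of both experienced groups, 1 was higher and 1 lower (Gbp9, −1.32), as were 1559 and 1801 of 15484 genes tested. The count of 0 between experienced and naive mice held under every setting, and all 10 differences after LPS stayed below 0 in each leave-one-out. With Tgtp1 added to Tgtp2, 2 and 6 were called.

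On the log2(TPM + 1) scale the median change of all genes in experienced mice was −0.13, against −0.02 with TMM, and the share of calls that were higher was 15.7% there and 19.9% in naive mice, against 35.4% and 45.2% with TMM; upper-quartile scaling gave 35.0% in naive mice.

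Signs turned only in differences that were not called. Irgm2 in experienced mice was 0.0203 with RLE size factors, 0.0329 with no filter, 0.0181 with 2 groups and 0.0224 with DESeq2, and in naive mice −0.0267 and −0.0371 on the log2(TPM + 1) and log2(TPM + 0.1) scales. After PBS, Gbp2 was −0.0111 with upper-quartile factors and −7.88e-05 with no filter, Gbp9 −0.00833 with upper-quartile factors and −0.12 without both replicates 4, and Gbp3 0.0603 without them. The interaction was 0.0525 and 0.0649 for Gbp3 and 0.0448 and 0.0492 for Tgtp2 on the 2 TPM scales. Leaving out 1 library gave −0.16 to 0.18 for Irgm2 in experienced mice; in naive mice −0.0333 to 0.47 for Gbp2, −0.17 to 0.44 for Gbp9 and −0.0337 to 0.43 for Irgm2; after PBS −0.0621 to 0.15 for Gbp2, −0.21 to 0.0504 for Gbp3, −0.13 to 0.26 for Gbp9, −0.3 to 0.0415 for Irgm2, −0.37 to 0.2 for Iigp1 and −0.3 to 0.13 for Tgtp2; and for the interaction −0.2 to 0.0628 for Gbp3 and −0.4 to 0.0326 for Irgm2. The cause was not tested.

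Samples with the same replicate number had a median correlation of −0.024 (−0.203 to 0.293), against 0.005 (−0.346 to 0.284) with different numbers. The highest, 0.293, was experienced LPS 4 with experienced PBS 4. A median over all pairs of groups cannot tell whether some groups were paired by number. With the replicate block, 2 GTPases were called in experienced mice (Gbp7 lost, 0.52) and 5 in naive mice (Igtp lost, 0.77). Depth limits low genes: with 4 libraries a group, the interval of Gbp9 in naive mice spanned −0.96 to 1.34.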
